A study of Mus musculus with 10 samples.

Results

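The 10 genes described here belong to the Reelin pathway or mark Cajal-Retzius neurons, and they were followed through the transcripts and the Rcor2 chromatin peaks of mouse cortical midline on embryonic day 14.5. They were chosen by symbol: Reln, the receptors Lrp8 and Vldlr, the adaptor Dab1, and Trp73, Lhx5, Ebf2, Ebf3, Ndnf and Nhlh2, which mark Cajal-Retzius cells. All 10 were among the 16338 genes of the RNA-seq table, and 17 of the 6995 chromatin peaks carried the name of 1 of them. Rcor2 is a co-repressor that partners the demethylase LSD1. RNA was compared between 2 control libraries (Rcor2f/f, both alleles floxed and no Cre) and 2 conditional knockout (cKO) libraries (Rcor2f/f/EMX1-iCRE). The floxed alleles are therefore shared by both RNA groups. Cre is driven by Emx1, a gene of dorsal telencephalic progenitors, so ventrally born interneurons come from outside its lineage. Chromatin immunoprecipitation (ChIP-seq) used wild type midline, with 2 libraries each for an Rcor2 antibody, a rabbit IgG mock antibody and total input. All animals were C57/Bl6. The labels do not say whether a library came from 1 embryo or a pool, so p-values measure only the spread between these libraries, which may be technical.

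Reelin is a large secreted glycoprotein. It is released in the marginal zone of the cortex, mainly by Cajal-Retzius cells, which arise at the cortical hem, the septum and the border of pallium and subpallium. It binds the lipoprotein receptors Lrp8 (ApoER2) and Vldlr on migrating neurons, and Src family kinases then phosphorylate the adaptor Dab1. Loss of Reelin, of Dab1 or of both receptors disturbs cortical layering. The p53 relative Trp73 and the transcription factors Lhx5, Ebf2, Ebf3 and Nhlh2 are expressed in Cajal-Retzius cells, and Ndnf is a secreted factor made by Cajal-Retzius cells and by some interneurons.

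The strongest Rcor2 peaks of these genes lay inside Lrp8, and the Dab1 peak nearest to a start lay just before it, so the sequences before those starts are shown first. Each is the 250 bases upstream of a start, 5′ to 3′ on the plus strand, taken from RefSeq on GRCm38.p6, which is mm10, with CG dinucleotides in capitals. The first is the start of Dab1 that had a peak before it, at chr4:104367288-104367537. The second is the first Lrp8 start in the sequence table, at chr4:107802635-107802884, with its nearest peak in the gene body. The third is a start inside Lrp8, at chr4:107822911-107823160, with a peak just after it.
Dab1 start with a peak: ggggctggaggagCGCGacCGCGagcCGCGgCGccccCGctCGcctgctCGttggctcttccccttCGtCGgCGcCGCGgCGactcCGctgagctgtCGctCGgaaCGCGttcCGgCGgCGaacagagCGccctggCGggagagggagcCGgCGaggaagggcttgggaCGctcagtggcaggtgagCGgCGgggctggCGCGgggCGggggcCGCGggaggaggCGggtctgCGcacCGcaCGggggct
Lrp8 first start: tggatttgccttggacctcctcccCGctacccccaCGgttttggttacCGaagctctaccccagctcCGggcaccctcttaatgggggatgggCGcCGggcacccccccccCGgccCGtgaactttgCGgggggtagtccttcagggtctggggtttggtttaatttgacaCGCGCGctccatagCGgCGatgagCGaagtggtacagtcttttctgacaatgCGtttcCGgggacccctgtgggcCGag
Lrp8 inner start: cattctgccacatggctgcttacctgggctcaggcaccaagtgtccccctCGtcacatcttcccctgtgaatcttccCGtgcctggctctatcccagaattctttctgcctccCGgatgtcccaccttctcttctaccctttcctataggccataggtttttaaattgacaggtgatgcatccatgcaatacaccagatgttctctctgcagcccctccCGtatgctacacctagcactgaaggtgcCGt
The Dab1 sequence held 40 CG dinucleotides, the first Lrp8 start 18 and the inner Lrp8 start 5, against a median of 6 over the 32851 such sequences in the RefSeq table. Only 1.31% of those sequences held at least as many as the Dab1 one. The sequences of 7 of the 10 genes, 12 in all, were in the table; Lhx5, Ebf2 and Ndnf were not matched. Reln had 37 CG dinucleotides and Ebf3 43. All motifs were searched on both strands. A GC box (GGGCGG) was found in 5 of the 12 and in 32.7% of all sequences. An E-box (CANNTG) was found in 9 of the 12 and in 66.2% of all. The left part of the RE1 element that Rest binds (TTCAGCACC), its right part and the Ebf palindrome were each found in 0 of the 12, and in 0.301%, 0.0974% and 0.779% of all sequences. The homeodomain core TAATTA was found in 1 of the 12, a Vldlr start, and in 4.84% of all.

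The first question was how these genes differed between control and cKO midline. Ndnf was lower in the cKO, and none of the other 9 genes passed the test. In the authors' deposited table Reln was lower as well. Of all 14324 genes tested, 14.5% were called at a limma adjusted p under 0.05, 6.16% as higher and 8.29% as lower. Among the 10 genes, 0 were called higher and 1 lower, and their median log2 change was -0.00 against -0.01 over all tested genes. The deleted gene itself, Rcor2, had normalized counts (reads scaled to a common depth) of 7901 and 7257 in control libraries, against 6363 and 6840 in cKO libraries (log2 -0.20, limma adjusted p 0.0541). For Rcor2, the authors' deposited table has an adjusted p of 0.0444. The floxed exons are not named in the labels, so a count over the whole gene is a weak check of the genotype. In bulk tissue, fewer cells of a type and less RNA per cell cannot be told apart. In the cKO, 7 of 8 projection neuron markers fell (Mapt, Stmn2, Tubb3 and Neurod6 among them) and 5 of 8 dorsal progenitor markers rose (Hes5, Sox2, Emx1, Emx2 and Pax6; Vim and Nes, the most abundant, did not pass). The projection neuron list summed to 112919 and 110217 normalized counts in control libraries, against 73917 and 86038 in cKO libraries. The progenitor list summed to 91914 and 90336 against 100922 and 99531. With either control left out, 0 progenitor markers and 3 projection neuron markers passed. The part of these shifts in the results below was not tested. Choroid plexus markers summed to 338 and 357 against 499 and 490, with Otx2 and Folr1 higher and Clic6 not passed; with either control left out 0 of the 5 passed. Ttr, a defining choroid plexus gene, had 19.5 and 14.1 normalized counts in control libraries, against 9.25 and 5.87 in cKO libraries (log2 -1.07, limma adjusted p 0.128). No microglia marker passed, including Csf1r and Cx3cr1, and of 4 measured blood markers Alas2 fell while Hbb-y did not pass.

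**Figure D1:**
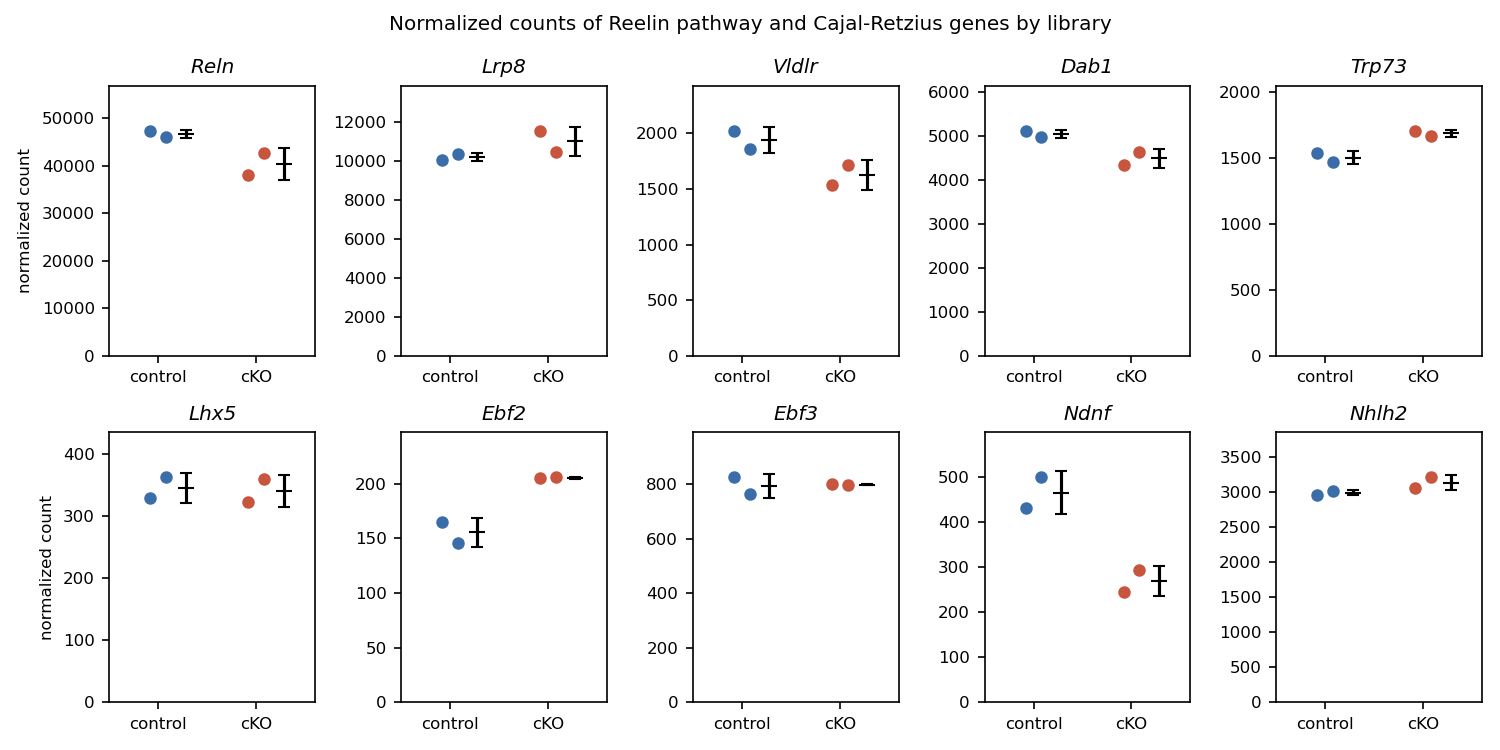
Normalized counts (vertical axes, from 0, scaled per gene) of the 10 genes in each control and cKO library; coloured points are libraries, black bars the mean and SD of 2 libraries. The Ndnf libraries are well apart between the groups, while those of Lhx5 and Ebf3 overlap.

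Reln, the ligand, had 47305 and 46009 normalized counts in control libraries, against 38055 and 42718 in cKO libraries. Both cKO libraries were below both controls, and the cKO libraries differed more from each other than the controls did. The means were 46657 ± 916 and 40387 ± 3297 (SD, n = 2 each), a log2 change of -0.21 (95% confidence interval -0.36 to -0.07, limma adjusted p 0.0610). For Reln, the authors' deposited table has a log2 fold of -0.19 with an adjusted p of 0.0136, under 0.05. Leaving out cKO replicate 2 gave a log2 value of -0.29 (limma adjusted p 0.00622), and quantile normalization gave -0.09 (limma adjusted p 0.502). These are the lowest and highest adjusted p of Reln over the main setting and 12 alternatives.

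The receptors stood on opposite sides of no change. Lrp8, the receptor that also acts in synaptic signalling, had 10091 and 10367 normalized counts in control libraries, against 11563 and 10504 in cKO libraries. The groups did not overlap, but cKO replicate 2 was only just above the higher control. The log2 change was 0.11 (95% confidence interval -0.02 to 0.23, limma adjusted p 0.227). Vldlr had 2020 and 1854 in control libraries, against 1532 and 1719 in cKO libraries, again without overlap and here lower in the cKO. Its log2 change was -0.25 (95% confidence interval -0.42 to -0.09), with a limma adjusted p of 0.05002 that lay just above the threshold. Vldlr was called lower with a pseudocount of 5 (limma adjusted p 0.0498) and among genes with a mean of at least 50 (0.0477); over all settings its adjusted p ran from 0.00389 to 0.295. Dab1, the intracellular adaptor of both receptors, had 5114 and 4984 in control libraries, against 4337 and 4644 in cKO libraries. Both cKO libraries were below the controls (log2 -0.17, 95% confidence interval -0.28 to -0.06, limma adjusted p 0.0570). Without cKO replicate 2, Vldlr (log2 -0.34, limma adjusted p 0.00389) and Dab1 (log2 -0.22, limma adjusted p 0.0102) were called lower and Lrp8 (log2 0.18, limma adjusted p 0.0298) higher. In the authors' deposited table, the adjusted p was 0.210 for Lrp8, 0.0726 for Vldlr and 0.111 for Dab1.

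Ndnf had 432 and 499 normalized counts in control libraries, against 246 and 294 in cKO libraries. Every cKO library was far below every control. The means were 466 ± 47.7 and 270 ± 33.8 (SD, n = 2 each), so the cKO level was 57.9% of the control level (log2 -0.79, SE 0.12, limma adjusted p 0.00778). Without control replicate 2 the log2 change was -0.68 and the gene did not pass (limma adjusted p 0.0711); over all settings the adjusted p ran from 0.000294 to that value. For Ndnf, the authors' deposited table has a log2 fold of -0.77 with an adjusted p of 0.000304. Some interneurons also make Ndnf and Reln, mainly at later stages. Among 10 measured markers of ventrally born interneurons 4 fell (Lhx6, Gad1, Gad2 and Sst) and 0 rose. These markers were chosen for ventrally born interneurons in general, not for those that make Ndnf. Over all tested genes 8.29% were called lower and 6.16% higher. The interneuron list summed to 3512 and 3746 normalized counts in control libraries, against 3027 and 3050 in cKO libraries, with no marker at 0 in every library; with either control left out only Lhx6 passed. Its part in the Ndnf difference was not tested.

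None of the 5 transcription factors of Cajal-Retzius cells was called. Trp73, which these cells need to survive and persist, had 1537 and 1464 normalized counts in control libraries, against 1702 and 1667 in cKO libraries. All cKO libraries were higher, by a log2 of 0.17 (95% confidence interval 0.04 to 0.29, limma adjusted p 0.0804). Ebf2, a helix-loop-helix factor and the least counted of the 10, had 165 and 146 in control libraries, against 205 and 206 in cKO libraries. Its log2 change of 0.40 (95% confidence interval 0.11 to 0.70, limma adjusted p 0.0748) was the largest upward value of the 10 genes and did not pass. Its relative Ebf3 had 825 and 763 in control libraries, against 800.0 and 797 in cKO libraries. The Ebf3 groups overlapped (log2 0.01, 95% confidence interval -0.15 to 0.17, limma adjusted p 0.951). Lhx5, a LIM homeodomain factor, had 329 and 362 in control libraries, against 323 and 359 in cKO libraries, with as much spread within a group as between groups (log2 -0.02, 95% confidence interval -0.26 to 0.22, limma adjusted p 0.928). Nhlh2, a helix-loop-helix factor of postmitotic neurons, had 2968 and 3020 in control libraries, against 3065 and 3214 in cKO libraries (log2 0.07, 95% confidence interval -0.04 to 0.18, limma adjusted p 0.389). Counting non-overlap alone, 4 of the 10 genes were lower in both cKO libraries, 4 were higher and 2 overlapped. Over all tested genes 33.3% did not overlap downward and 27.7% upward, so that 8 of the 10 stood beside a background of 61% in either direction, and the share among the 10 is not a result about them.

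**Figure D2:**
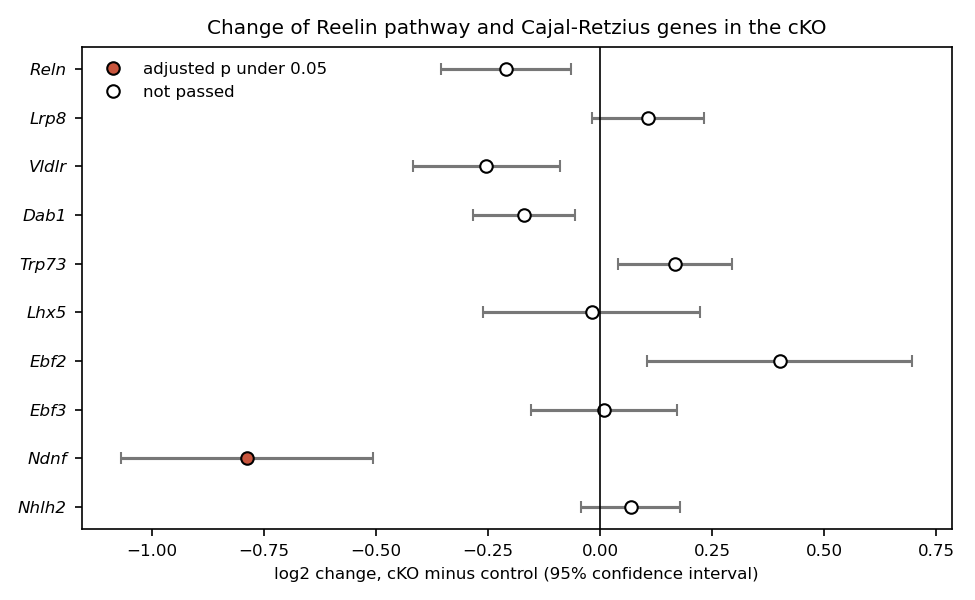
Log2 change, cKO minus control, of the 10 genes on the log2(normalized count + 1) scale, with 95% confidence intervals from limma. Ndnf, filled, passed at an adjusted p under 0.05; the intervals of Lrp8, Lhx5, Ebf3 and Nhlh2 include 0.

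Likeness was measured as the Euclidean distance between log2 values, each gene centred on its own mean over the 4 RNA libraries, among 12000 genes that averaged at least 50 normalized counts and had no predicted name (Gm with digits, or ending in Rik). The genes nearest to Reln were Cdk5 (distance 0.0033), Alg9 (0.0083) and Nyap1 (0.0093). Cdk5, a kinase of neuronal migration, had 1598 and 1556 normalized counts in control libraries, against 1290 and 1446 in cKO libraries. Nearest to Ndnf were Tcp11l2 (distance 0.066), Nxph1 (0.069) and Ephx4 (0.072), with log2 changes of -0.79, -0.78 and -0.73. Nearest to Lrp8 were Celsr2 (distance 0.0069), Dicer1 (0.0085) and Sox6 (0.012). With 4 libraries many genes lie close, and the distances are a description only.

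Around these genes, those for proteins that process Reelin or regulate its proteases moved in both directions. Of 8 listed genes of Reelin secretion and processing, 2 rose, 2 fell and 4 did not pass (median log2 -0.02), where 14.5% of all tested genes were called. Adamts4, a metalloprotease that can cleave Reelin, went from 359 and 346 normalized counts in the controls to 673 and 616 in the cKO (log2 0.87, SE 0.087, limma adjusted p 0.00387). Adamts3, the main Reelin-inactivating protease of the cortex, went the other way, from 1892 and 2047 to 1058 and 1409 (log2 -0.69, SE 0.12, limma adjusted p 0.00966). The groups of both protease genes were apart. Pcsk6, a proprotein convertase, rose (log2 0.45, limma adjusted p 0.00749), and Serpini1, the neuronal inhibitor of tissue plasminogen activator, fell (log2 -0.61, limma adjusted p 0.00815). Adamts4 was the only one of these 4 that passed without control replicate 1 or without control replicate 2.

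Of 10 receptor partners and other ligands of the Reelin receptors, 1 rose, 3 fell and 6 did not pass (median log2 -0.04). Nrp1, a neuropilin that can join Vldlr, fell from 13487 and 13762 normalized counts to 8914 and 9928 (log2 -0.53, SE 0.057, limma adjusted p 0.00429). Efnb2, an ephrin, and Thbs1, a thrombospondin that binds Lrp8, fell by 0.28 and 0.35 on the log2 scale (limma adjusted p 0.0101 and 0.0120). Clu, an apolipoprotein ligand of both receptors, rose (log2 0.39, limma adjusted p 0.00706). Nrp1 alone of this list passed without control replicate 1 or without control replicate 2. Of 32 genes of signal transduction at and below Dab1, the kinases that act on it included, 1 rose, 4 fell and 27 did not pass (median log2 -0.06). Cdk5r1, the p35 activator of Cdk5, fell from 12829 and 12953 to 9526 and 10538 (log2 -0.36, SE 0.055, limma adjusted p 0.00736). Pik3r1, a regulatory subunit of PI3 kinase, fell by 0.35 (limma adjusted p 0.00810), the Lis1 partner Ndel1 by 0.20 (0.0380) and the cofilin kinase Limk1 by 0.19 (0.0427) on the log2 scale. Nde1, the Ndel1 relative of dividing progenitors, rose (log2 0.31, limma adjusted p 0.00791). Fyn, a kinase that phosphorylates Dab1, stood at log2 -0.09 (limma adjusted p 0.239). Without control replicate 1, and likewise without control replicate 2, 0 genes of the transduction list were called; without cKO replicate 1, Nde1, Pik3r1 and Cdk5r1 were. Over the 3 lists, 4 of 50 genes rose and 9 fell, with a median log2 of -0.06 against -0.01 over all tested genes. Over all tested genes 14.5% were called.

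**Figure D3:**
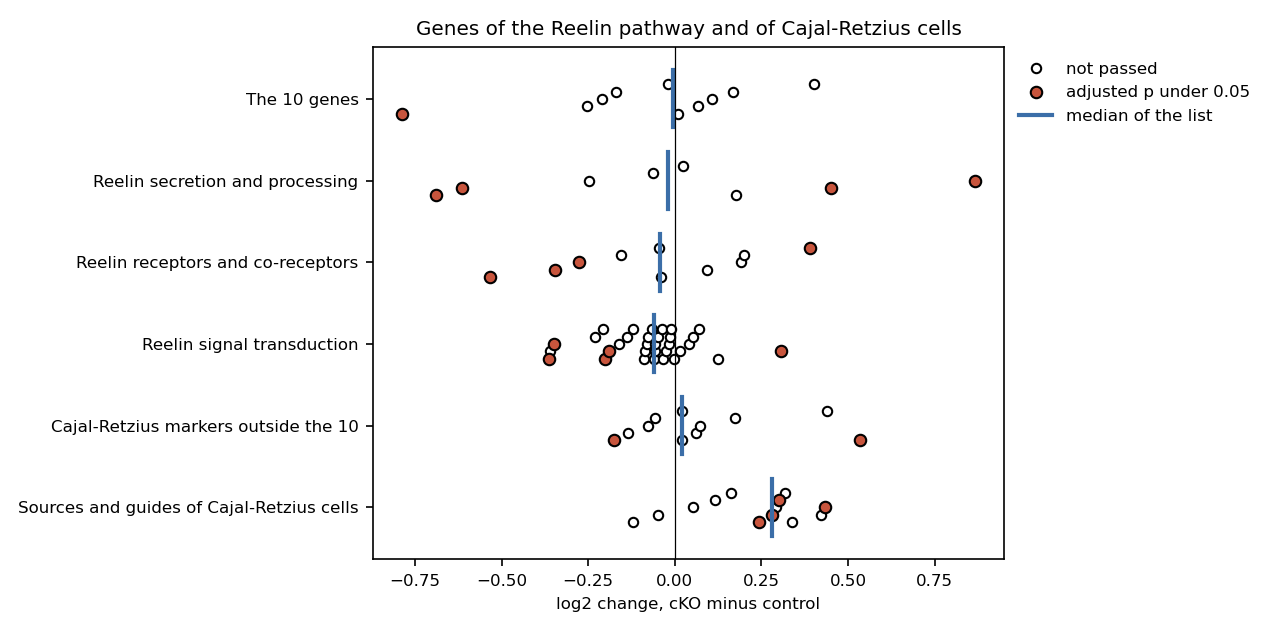
Log2 change, cKO minus control, of every tested gene (point) of the 10 genes and of 5 lists of pathway and Cajal-Retzius genes, with the median of each list as a bar. Filled points passed at a limma adjusted p under 0.05; secretion genes lie on both sides of 0, and the filled points of the sources and guides lie on the right.

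Among 11 further Cajal-Retzius markers, 1 rose, 1 fell and 9 missed the threshold (median log2 0.02), where 14.5% of all tested genes were called, 6.16% as higher and 8.29% as lower. Lhx9, a LIM homeodomain factor of the medial cortex, went from 2393 and 2092 normalized counts to 3476 and 3024 (log2 0.53, SE 0.083, limma adjusted p 0.00771). Tbr1, which deep-layer neurons also express, fell by 0.18 on the log2 scale (limma adjusted p 0.0348). Calb2, which encodes calretinin, stood at log2 0.06 (limma adjusted p 0.614), and Lhx1 at 0.44 (limma adjusted p 0.0766). Without control replicate 2 none of the 11 was called, without control replicate 1 only Lhx9, and without cKO replicate 2 Lhx1 and Lhx9. Of 13 tested genes that mark the sources or guide these cells, 4 rose, 0 fell and 9 missed the threshold (median log2 0.28 against -0.01 over all tested genes, of which 6.16% were called higher). Dmrta2, a doublesex-related factor of medial progenitors, rose by 0.43 on the log2 scale (limma adjusted p 0.00665), and its relative Dmrt3 by 0.28 (limma adjusted p 0.0220). The dorsal midline factors Zic1 and Zic2 rose by 0.30 and 0.24 on that scale (limma adjusted p 0.0157 and 0.0193). The hem genes Wnt3a and Lmx1a had log2 changes of 0.42 and 0.34 (limma adjusted p 0.0727 and 0.0573). Neither control could be left out without all 4 calls of this list being lost. Cajal-Retzius cells lie under the meninges, and the markers of meninges and vessel wall summed to 3291 and 3071 normalized counts in control libraries and to 10142 and 3567 in the first and second cKO library. Of those 10 markers 2 rose (Col1a1 and Dcn), 0 fell and 8 did not pass, and no marker was at 0 in every library. Neither rise passed with either control left out or with quantile normalization. Col3a1 had 334 and 308 normalized counts in control libraries, against 2842 and 282 in cKO libraries, so that its level was high in cKO replicate 1 alone. The endothelial genes Cldn5 (log2 -0.23, limma adjusted p 0.151) and Pecam1 (log2 -0.21, limma adjusted p 0.101) lay lower in both cKO libraries and did not pass. The part of that difference between the cKO libraries in the values above was not tested.

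The second question was where Rcor2 peaks lay at these genes. By the authors' gene names, Lrp8 had 7 peaks, Ebf2 4, Dab1 3, and Reln, Lhx5 and Ebf3 1 each. Vldlr, Trp73, Ndnf and Nhlh2 had none. Of all tested genes, 19.4% had a named peak. Of the 17 peaks, 13 were classed as gene body, 3 as distal and 1 as promoter, while 36% of all peaks were in the gene body class. That 36% is taken over all peaks, 1642 of them intergenic, while 0 of the 17 were intergenic. The intergenic peaks found near these genes carried no gene name, so a choice by name leaves such peaks out. Of the 13, 7 were of Lrp8, and the share is not a result about these genes. Rcor2 height (coverage at the peak) exceeded IgG in all library pairings at 17 of 17 peaks and at 98.9% of all peaks; since the peaks were called on Rcor2 against IgG, that count is fixed by the choice of peaks. Rcor2 exceeded input in all pairings at 4 of the 17 peaks, overlapped it at 12 and was below it at 1. Over all peaks 40.3% were above input and 9.08% below. These comparisons with input used the heights as deposited, without scaling for library depth. The part of depth in them was not tested. Rcor2 replicate 2 was higher than replicate 1 at 16 of the 17 and equal at the other; over all peaks the median height was 13 in replicate 1 and 19 in replicate 2.

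Lrp8 (chromosome 4, 107802200 to 107876840 in RefSeq) held its 7 peaks within 26743 bases, all of the gene body class. Of the 3376 genes with a named peak, 50 had at least 7, Lrp8 included, and the median was 1. The first and strongest peak, at chr4:107816921-107817552, lay 14.4 kb after the first Lrp8 start. Its heights were 41 and 84 with the Rcor2 antibody, 7 and 4 with IgG and 26 and 23 in input. Rcor2 thus stood above input in both libraries there, and the authors' fold over IgG was 13.8. By its pileup of 95 this peak was number 4 of the 6995, where the median pileup was 24.
The second peak, at chr4:107817612-107817835, began right after the first. Its heights were 10 and 16 with Rcor2, 2 and 2 with IgG and 31 and 25 in input. Here input was higher than Rcor2 in every library, the one such case among the 17. The third peak, at chr4:107820911-107821561 and 18.2 kb after the first start, had heights of 26 and 70 with Rcor2, 7 and 4 with IgG and 30 and 22 in input. It ranked 39 by pileup (68), but Rcor2 replicate 1 lay between the input libraries.
The fourth peak, at chr4:107823323-107823817, had its summit 268 bases after the inner Lrp8 start shown above. It had heights of 14 and 20 with Rcor2, 5 and 4 with IgG and 18 and 16 in input, so that Rcor2 and input overlapped. The fifth and sixth peaks neighboured each other, at chr4:107828464-107828643 and chr4:107828707-107828986. The fifth was the weakest of the 7, with heights of 11 and 14 against 5 and 4 with IgG and 10 and 12 in input. The sixth had 23 and 23 with Rcor2, 7 and 6 with IgG and 19 and 22 in input, just above input. The seventh peak, at chr4:107843489-107843663, lay 40.7 kb after the first start. Its heights were 12 and 19 with Rcor2, 7 and 3 with IgG and 17 and 18 in input. Input at the first 3 Lrp8 peaks (22 to 31) was above its median over all peaks of 13 and 12. With a −log10 q of at least 5, 4 of the 7 peaks remained. The transcript of Lrp8, the gene named for these 7 peaks, had the log2 change of 0.11 given above. Among the 10 genes, Ebf3 (log2 0.01), Lhx5 (-0.02) and Nhlh2 (0.07) changed less, with 1, 1 and 0 named peaks.

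**Figure D4:**
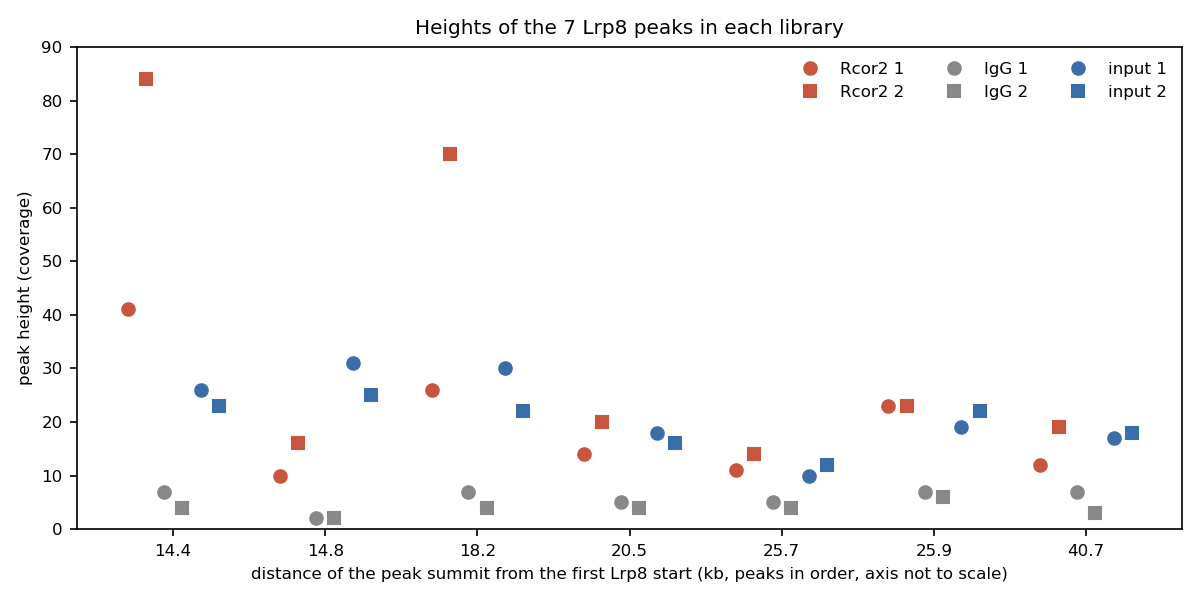
Heights (coverage, vertical axis) of the 7 Lrp8 peaks in the 2 Rcor2, 2 IgG and 2 input libraries, with peaks in genomic order and labelled by the distance of their summit from the first Lrp8 start in kb. Rcor2 reaches 84 and 70 at the peaks 14.4 and 18.2 kb from that start; at the others it lies near or below input.

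Dab1 (chromosome 4, 103619500 to 104744844) is a very long gene with several starts. The only promoter peak of the 17, at chr4:104366896-104367175, had its summit 500 bases before the CG-rich Dab1 start shown above. Its heights were 15 and 25 with Rcor2, 4 and 5 with IgG and 24 and 27 in input, so Rcor2 was not above input. A gene body peak at chr4:104547952-104548180 had 15 and 16 with Rcor2, 6 and 2 with IgG and 6 and 10 in input, above input in both libraries. The other, at chr4:104719257-104719498, had 12 and 20, 2 and 3, and 19 and 15 in the same order. The RefSeq span of Dab1 holds 9 more peaks that the authors' table classes as intergenic. They lie upstream of the CG-rich start, between chr4:103828882 and chr4:104271024, and 5 of the 9 were above input in both Rcor2 libraries. The clearest, at chr4:104045447-104045701, had heights of 24 and 33 with Rcor2, 5 and 6 with IgG and 6 and 6 in input. Another, at chr4:104270607-104271024, had 19 and 31 with Rcor2, 4 and 5 with IgG and 8 and 5 in input. By RefSeq span Dab1 would thus have 12 peaks in place of 3.

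Ebf2 had 4 peaks, 2 distal and 2 in the gene body. The strongest, at chr14:67188659-67188959 and 44333 bases before the gene, had heights of 22 and 27 with Rcor2, 6 and 3 with IgG and 14 and 17 in input, above input in both libraries. The other 3 overlapped input. Reln had 1 peak, at chr5:22094368-22094676, 250272 bases into this 460252-base gene. Its heights were 14 and 18 with Rcor2, 0 and 4 with IgG and 11 and 17 in input, which overlap. The Lhx5 peak (chr5:120410329-120410599) lay 21287 bases outside the gene and the Ebf3 peak (chr7:137253001-137253450) inside it, and both overlapped input. Ndnf, the 1 gene of the 10 that passed in the RNA comparison, had no peak within 622055 bases of its span (chromosome 6, 65671611 to 65712323). For Vldlr that distance was 327372 bases and for Trp73 70326 bases. Nhlh2 had 2 unnamed peaks 9139 and 9517 bases past its end, of which the second was below input.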

How the data were processed

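RNA-seq and ChIP-seq libraries were grouped by the sample titles. Per the submitters' processing notes, HISAT2 2.1.0, Trim Galore and mm10 were used; no source used here names the gene counter, the use of strand or the peak caller's settings. The RNA values that the authors deposited are normalized counts (unit: signal); 100% of them were whole multiples of 1 step per library (tolerance 1e-04), which gave 27674987 to 30270598 reads per library. The authors' deposited table adds log2 fold changes, a test score and p-values. Deposited peak values are, per the file headers, pileup and height (signal), fold over IgG (a ratio) and, by place and range, −log10 of p and q in 2 columns with spoiled headers.

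Genes with a mean of at least 10 (14324 of 16338) were fitted with limma-trend (limma 3.58.1, R 4.3.3) on log2(value + 1), two-sided, Benjamini-Hochberg over all genes, threshold 0.05, with 2 residual and 6.21 prior degrees of freedom; log2 changes on this scale understate those of low genes. With 2 libraries a group, no exact permutation p can be under 0.333. The fit was tested on simulated counts with the same dispersion (spread between libraries) set for every gene. That test does not cover uneven differences between libraries such as that of Col3a1. Alternatives were other pseudocounts, filters and scalings, edgeR 4.0.16, a replicate block and leaving out each library. Heights are not read counts and were described without a test. Named genes were the 10, Rcor2, up to 6 called genes (or the 2 most abundant) of each list, up to 4 called and the 2 most abundant of each marker list, and 3 nearest genes of Reln, Ndnf and Lrp8; Pax6, Calb2, Lhx1, Fyn, Wnt3a, Lmx1a, Ttr, Cldn5 and Pecam1 were added after their values were seen, as were the 2 unnamed Dab1 peaks that are described. Some genes that this rule names are not reported here. The genes and lists were chosen with earlier results of these data known. Gene spans and sequences are from RefSeq, in which all 10 symbols matched. Figures used Python 3.11.15 and matplotlib 3.10.9.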

Additional observations from a re-analysis of the deposited data

How the results depend on the processing

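Over all genes, 2070 were called; the counts with a library left out ran from 140 (without control replicate 2) to 3453 (without cKO replicate 2), with 172 without control replicate 1. Of the 10 genes, 0 were called higher, or 1 (Lrp8) without cKO replicate 2, so that leaving out a library gave 0 to 1. Ndnf alone was called lower, but with a pseudocount of 5 and with a mean of at least 50 there were 2 (Ndnf and Vldlr), and with a library left out there were 0 to 4, namely 0 where control replicate 2 and 4 where cKO replicate 2 was left out. Of the 50 genes of the Reelin lists 13 were called, with 2 to 16 when a library was left out (2 without either control). Of the 11 further Cajal-Retzius markers 2 were called, 1 with quantile normalization (Lhx9) and 0 to 2 with a library left out. The log2 change of Lhx5 (-0.02) ran from -0.095 to 0.058 with a library left out (0.051 without control replicate 2), and that of Ebf3 (0.01) from -0.047 to 0.065. With edgeR 1740 genes were called, Ndnf the only one of the 10. The cause of these differences was not tested; each of these fits with a library left out rests on 1 residual degree of freedom and takes the lone library to vary like the others.

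Labels give both RNA groups replicate numbers 1 and 2, and same-numbered libraries deviated together (r = 0.24 over 14324 genes), but nothing ties a number to a litter or day. With the replicate block 2076 genes were called against 2070, with 0 of the 10 genes higher and 1 lower; it changed no call of the 10. Of the named genes of the lists, Ndel1 (limma adjusted p 0.0553), Limk1 (0.0565) and Pax6 (0.0568) did not pass with the block. Ndel1 (0.0611) and Limk1 (0.0789) did not pass with quantile normalization either. Without the filter on the mean, Limk1, Pax6 and Dcn did not pass. With TMM scaling Limk1 did not, and with edgeR Ndel1, Dmrt3 and Dcn did not. Peaks of Lrp8 with a −log10 q of at least 5 numbered 4 in place of 7. Of the 10 genes, those with a peak were 6 by the authors' names and 6 by RefSeq span with 10000 bases on each side, where Nhlh2 replaced Lhx5. The median log2 ratio of Rcor2 to input over the 17 peaks was 0.19, and with a replicate left out -0.20 (without replicate 2) to 0.31 (without replicate 1). Heights in IgG of 0 to 7 limit the precision of each ratio to IgG.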
